A study of Mus musculus with 40 samples.

Results

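This report describes how regulatory T cells (Treg) differed from conventional CD4+ T cells (Tconv) of the same organs in kidney, liver, lung and pancreas. The comparison holds 16 of the 40 libraries of the series, 12 of Treg and 4 of Tconv, chosen by the source and cell type in the labels and by no measured value. All cells came from perfused wild-type mice whose Foxp3 gene reports through Thy1.1, a surface protein that marks cells making Foxp3. Treg were CD4+ and positive for the reporter, and Tconv were CD4+ and negative for it, so both groups carry the same reporter allele. Each library holds 2000 sorted cells, and each organ gave 3 Treg libraries and 1 Tconv library. The spread among Tconv libraries is therefore also a spread among organs. The labels do not tie libraries to animals, so p-values measure the spread between these samples, which may in part be technical. The design text names CD4 and the reporter as the gate, which leaves room in the Tconv gate for any other CD4-positive cell without Foxp3.

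Treg restrain immune responses. Their identity rests on the transcription factor Foxp3, and they depend on interleukin 2 (IL-2), which they take up through a high-affinity receptor and which other T cells make. Treg that settle in organs are known for an effector form that carries receptors for alarm signals and tissue-homing chemokines and makes repair factors. CD4+ Tconv of the same organs are mostly antigen-experienced helper cells, and some CD4+ cells of liver and other organs share genes with natural killer (NK) cells.

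Library totals ran from 12745701 to 27226115 counts, with 14411 to 18431 genes detected. Levels are given in CPM (counts scaled to a common library total) after TMM scaling of the libraries, and they compare one gene between libraries, not genes with each other. Tconv values are always listed in the order kidney, liver, lung, pancreas, and Treg values as the lowest, the median and the highest of 12 libraries. The T cell genes Cd3e (775 to 1338 CPM) and Trac (1140 to 2017 CPM) were high in all 16 libraries, and Cd4 ran from 318 to 1136 CPM. Lung Tconv replicate 5 and lung Treg replicate 6 stood apart, with 9 and 11 genes under 1 CPM that had at least 10 CPM in each of the other 15 libraries, against 0 such genes in any other library. The same 2 libraries had the lowest correlations of gene length and relative level across genes, at -0.23 and -0.28, so longer genes were counted less. Others deviated too. Liver Treg replicate 4 was at -0.149 and lung Treg replicate 5 at -0.14, and the highest was 0.229 in pancreas Treg replicate 1. Xist, the RNA of the inactive X chromosome of females, was at 56.4 to 208 CPM in both Tconv libraries and 4 Treg libraries of lung and pancreas, and at most at 0.0929 CPM in all others. The labels give no sex, and lung and pancreas each held libraries with and without this sign of female cells. Reads of the predicted gene Gm26917 took 0.194% to 0.44% of counts in the 4 Tconv libraries, 0.823% to 2.23% in kidney Treg, 2.12% to 4.67% in liver Treg, 0.272% to 1.57% in lung Treg and 0.355% to 1.37% in pancreas Treg. Pancreas acinar and islet genes summed to 10380 CPM in pancreas Tconv and to at most 130100 CPM in a pancreas Treg library, and kidney tubule genes to 2245 CPM in kidney Treg replicate 1. The part of these differences in the results was not tested, except where values without a library are given.

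Foxp3 (ENSMUSG00000039521.13, mm10 chromosome X, 7573644 to 7595245) followed the sort in every library. It was at 0.426, 0.356, 6.22 and 1.28 CPM in Tconv and at 128, 190.1 and 285 CPM in Treg. No Tconv library reached the Treg range, and lung Tconv was the highest of the 4. Its log2 fold change, Treg minus Tconv, was 6.78 ± 0.70 (SE), with an adjusted p of 8.22e-05. Here and below, adjusted p is that of edgeR's quasi-likelihood F test with the organ as an additive factor, adjusted over all genes by Benjamini-Hochberg, and a gene is called below 0.05.

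Ccr8 (ENSMUSG00000042262.5, chromosome 9, 120092114 to 120094906), a chemokine receptor of tissue Treg, was at 220.5, 12.1, 70.6 and 124 CPM in Tconv. Its Treg values were 283 to 1015 CPM in kidney, 16.6 to 28.0 in liver, 116 to 298 in lung and 368 to 450 in pancreas. In each organ all 3 Treg libraries lay above their Tconv library, while liver Treg lay below the Tconv of the 3 other organs. The pooled log2 fold change was 1.40 ± 0.32 with an adjusted p of 0.0282. This call rested on single libraries: without kidney, pancreas, lung or liver Tconv the adjusted p was 0.145, 0.118, 0.103 and 0.0625, and without liver Treg replicate 4 or kidney Treg replicate 3 it was 0.0576 and 0.0533.

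Nkg7 (ENSMUSG00000004612.9, chromosome 7, 43437073 to 43438249), a membrane protein of killer cell granules, went the other way in 3 of the 4 organs. It was at 753, 856, 486 and 54.9 CPM in Tconv and at 21.8, 77.4 and 218 CPM in Treg. Kidney, liver and lung Tconv were all above every Treg library, whereas pancreas Tconv was below the pancreas Treg, which had 67.1 to 126 CPM. The pooled log2 fold change was -2.43 ± 0.54 with an adjusted p of 0.0223. Without liver, lung or kidney Tconv the adjusted p was 0.21, 0.114 and 0.0942, and without liver Treg replicate 1 or 3 it was 0.0519 and 0.0503.

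**Figure D1:**
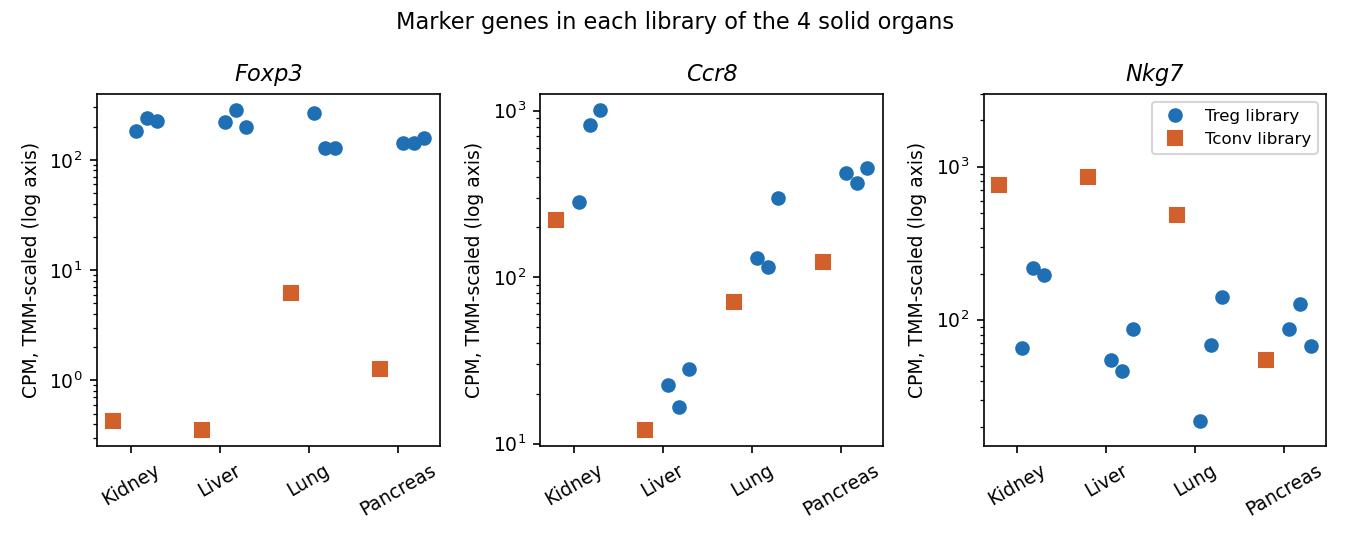
CPM of Foxp3, Ccr8 and Nkg7 in each library by organ on a log axis; circles are the 12 Treg and squares the 4 Tconv libraries. Foxp3 separates the 2 cell types in every organ, Ccr8 of liver Treg (16.6 to 28.0 CPM) lies below that of the other Treg, and pancreas Tconv (54.9 CPM of Nkg7) lacks the high Nkg7 of the other 3 Tconv libraries.

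Of 15015 genes tested, 447 were called (2.98%). Of these, 277 were higher in Treg (1.84%) and 170 lower (1.13%), and 230 and 129 of them changed by at least 2-fold. The median log2 fold change over all genes was 0.05. All 12 Treg libraries lay above all 4 Tconv libraries for 132 of all genes tested (0.879%) and below them for 78 (0.519%), and 109 and 57 of these were called. Of the 447, 430 had the same sign in each organ taken alone. These genes were selected in the pooled fit of the same libraries, which favours equal signs, and the share over all genes was not computed. The number of calls depended on single Tconv libraries and fell to 203 without liver Tconv, 207 without kidney Tconv and 284 without lung Tconv. Because the libraries are bulk samples, fewer cells of a type and less RNA per cell cannot be told apart in any of these differences.

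The clearest differences were those of Treg identity genes. Of 24 genes on that list, all tested, 18 were higher in Treg and none lower, with a median log2 fold change of 2.90. This and the other lists were chosen with earlier results of these data known, so their counts are no independent support. Each list count here and below stands beside the share over all genes, 1.84% called higher and 1.13% called lower. Over all genes, the groups did not overlap for 0.879% with Treg above and 0.519% with Treg below. Ikzf2, which encodes Helios, an Ikaros family factor of Treg, was at 24.1, 34.8, 38.4 and 24.0 CPM in Tconv and at 236, 333 and 564 CPM in Treg. The lowest Treg library was several times above the highest Tconv library, and the log2 fold change of 3.56 ± 0.23 (adjusted p = 2.24e-06) was nearly equal in the 4 organs, from 3.23 in liver to 3.81 in kidney. Ikzf4, which encodes its relative Eos, was at 1.89, 6.12, 38.95 and 19.0 CPM in Tconv and at 140.0, 206 and 259 CPM in Treg. All Treg libraries again lay above all Tconv libraries, and its log2 fold change was 3.89 ± 0.57 (adjusted p = 0.00164).

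Among the receptors of the list, Il2ra, the high-affinity chain of the IL-2 receptor, was at 35.85, 85.0, 33.6 and 33.25 CPM in Tconv and at 257, 373 and 576 CPM in Treg. Liver Tconv stood above the other 3 Tconv libraries but below every Treg library. The log2 fold change was 3.11 ± 0.24 (adjusted p = 7.25e-06). Izumo1r, the folate receptor family member FR4, ran from 77.0 to 156 CPM in Tconv and from 262 to 654 in Treg, with a log2 fold change of 1.96 ± 0.21 (adjusted p = 0.000143). Nrp1, the co-receptor neuropilin-1, was at 97.0, 20.3, 50.2 and 70.0 CPM in Tconv and at 145, 468 and 569.7 CPM in Treg (log2 fold change 2.92 ± 0.38, adjusted p = 0.000561). Ctla4, which strips costimulatory ligands from antigen-presenting cells, was at 225, 29.5, 31.9 and 173 CPM in Tconv against 236, 810.3 and 1816 CPM in Treg. The groups did not overlap for Ctla4, but kidney and pancreas Tconv came close to the lowest Treg libraries, which were those of liver (236 to 249 CPM). Its log2 fold change was 3.08 ± 0.48 with an adjusted p of 0.0022, and of 0.0501 without the 4 liver libraries.

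Swap70, a regulator of the actin skeleton, rose by a log2 fold change of 4.02 ± 0.33 (adjusted p = 1.37e-05), from 4.27 to 18.2 CPM in Tconv to 84.9 to 265 CPM in Treg. The 6 members of the list that were not called were Il2rb, Socs2, Entpd1, Tnfrsf1b, Rgs1 and Plagl1. Il2rb, the shared beta chain of the IL-2 and IL-15 receptors, was at 1903, 2837, 1020.0 and 397 CPM in Tconv and at 1322, 1855 and 2586 CPM in Treg. Kidney and liver Tconv thus held as much Il2rb RNA as Treg, and pancreas Tconv less than any Treg library.

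Outside the list of identity genes, the smallest p-values among higher genes belonged to Cd81, Tmem158, Sh3bgrl, Gpr15, Lclat1 and Gsto1. Cd81, a tetraspanin, was at 30.9, 13.9, 42.4 and 33.0 CPM in Tconv and at 98.6, 140.4 and 196 CPM in Treg (log2 fold change 2.34 ± 0.21, adjusted p = 2.7e-05). Tmem158, a membrane protein gene induced by Ras, was at 2.14 to 4.11 CPM in Tconv and at 23.2 to 100.1 CPM in Treg, lowest in liver Treg (23.2 to 27.1 CPM). Sh3bgrl, a small thioredoxin-fold protein gene, had the smallest error of the 12, with a log2 fold change of 1.36 ± 0.13. Lclat1, an acyltransferase of cardiolipin and other phospholipids, and Gsto1, a glutathione transferase, rose by 2.40 ± 0.25 and 1.80 ± 0.20 on the log2 scale. All 5 had no overlap between the groups, and their adjusted p ran from 2.7e-05 for Cd81 to 0.000192 for Gsto1.

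Of the 12 higher and 12 lower genes named for this comparison, 22 of 24 kept their call whichever single library was left out. The exceptions were Smoc2, with an adjusted p of 0.0789 without kidney Treg replicate 3 and 0.0569 without kidney Tconv, and Klra1, with 0.112 without liver Tconv.

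**Figure D2:**
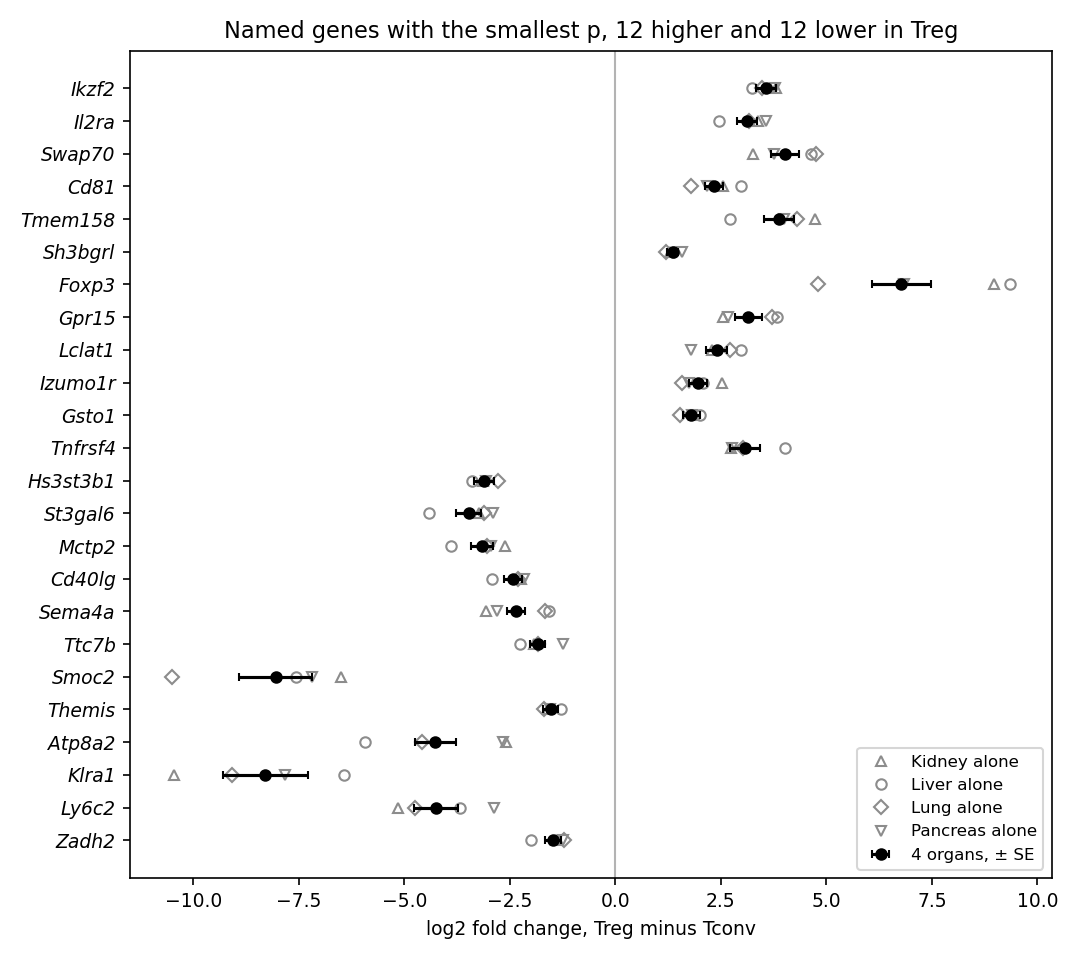
Log2 fold change, Treg minus Tconv, of the 12 higher and 12 lower named genes; black points are the fit over the 4 organs with its SE and open grey symbols the single organs. The higher genes range from 1.36 (Sh3bgrl) to 6.78 (Foxp3), and all 4 organs lie on the same side of 0 for each of the 24 genes; the fitted values of Smoc2 and Klra1, which were at or near 0 counts in Treg, depend on the prior count of the fit.

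The genes that were lower in Treg with the smallest p-values were 3 genes of the conventional helper list. That list was chosen with earlier results of these data known, so their place on it is no separate finding. Hs3st3b1, a sulfotransferase that modifies heparan sulfate, was at 90.5, 109.7, 83.4 and 75.1 CPM in Tconv and at 4.62, 9.95 and 16.4 CPM in Treg (log2 fold change -3.10 ± 0.24, adjusted p = 7.25e-06). St3gal6, a sialyltransferase, was at 147, 150.5, 92.1 and 38.9 CPM in Tconv and at 3.07, 7.55 and 18.9 CPM in Treg (-3.47 ± 0.29 on the log2 scale, adjusted p = 1.48e-05). Mctp2, a membrane protein with calcium-binding C2 domains, was at 78.6, 126, 29.2 and 44.9 CPM in Tconv and at 1.38, 7.82 and 13.6 CPM in Treg (-3.16 ± 0.27, adjusted p = 1.48e-05). None of the 3 had a Treg library within the Tconv range.

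Of the 24 conventional helper genes, 8 were lower in Treg and 1 was higher, with a median log2 fold change of -0.70. Cd40lg, the helper signal for B cells and dendritic cells, was at 620.2, 248, 123 and 469 CPM in Tconv and at 19.7, 50.5 and 177 CPM in Treg. Some kidney and pancreas Treg libraries reached above lung Tconv, but within each organ all 3 Treg libraries were below Tconv, and the log2 fold change was -2.42 ± 0.21 (adjusted p = 2.26e-05). Themis, a regulator of T cell receptor signals, fell by 1.54 ± 0.17 on the log2 scale (adjusted p = 0.000192), from 203 to 267 CPM in Tconv to 50.9 to 117 CPM in Treg. The other members called lower were Pde3b, Cd226 and Dapl1. The member that went against the rest, Arhgap20, was at 0.52, 0, 0 and 7.86 CPM in Tconv and at 2.54, 12.5 and 54.95 CPM in Treg (adjusted p = 0.0483), and it lost its call without any of 10 single libraries, with an adjusted p of up to 0.184 without kidney Tconv. The genes of resting and circulating T cells on this list did not pass: Tcf7 was at 791 to 2650.0 CPM in Tconv and 241 to 1321 CPM in Treg (adjusted p = 0.445), and Ccr7 overlapped widely (adjusted p = 0.806).

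Further genes outside the helper list were lower in Treg of all 4 organs. Sema4a, a semaphorin that acts between T cells and dendritic cells, was at 423, 247, 142 and 235 CPM in Tconv and at 25.9, 51.0 and 86.5 CPM in Treg (log2 fold change -2.35 ± 0.22, adjusted p = 2.85e-05). Ly6c2, a surface protein of effector and memory T cells and of monocytes, was at 362, 83.25, 139.7 and 44.9 CPM in Tconv and at 1.35, 6.03 and 14.2 CPM in Treg (-4.24 ± 0.52, adjusted p = 0.000365). The groups did not overlap for either gene. Atp8a2, a lipid flippase, was highest in liver Tconv at 221 CPM and lowest in pancreas Tconv at 6.17 CPM, against 0.511 to 10.7 CPM in Treg (-4.27 ± 0.49, adjusted p = 0.000192). With the Treg counts summed per organ its adjusted p was 0.0571. Ttc7b and Zadh2 fell by 1.84 ± 0.18 and 1.48 ± 0.19 on the log2 scale. Smoc2, a secreted matrix protein, was at 1.75, 1.07, 8.21 and 0.822 CPM in Tconv and at or near 0 in Treg, at no more than 0.0403 CPM in any library (adjusted p = 0.000104). It passed the filter on low counts through its Tconv values, so only a lower call was possible.

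Of the effector and tissue Treg genes fewer were called. Of 30 on the list 29 were tested, and 11 were higher in Treg and none lower, with a median log2 fold change of 0.89. Without lung Tconv the count was 7. Il1rl1, the receptor for the alarm cytokine IL-33, was at 37.4, 10.5, 70.0 and 31.7 CPM in Tconv and at 76.7, 291.5 and 575 CPM in Treg (log2 fold change 3.27 ± 0.47, adjusted p = 0.00137). Klrg1, an inhibitory receptor of effector cells, was at 11.0 to 53.1 CPM in Tconv and at 58.6 to 483 CPM in Treg (3.06 ± 0.46, adjusted p = 0.0017). Both had no overlap, and for both the lowest Treg library was 1 of kidney. Itgae, the CD103 chain that binds E-cadherin of epithelium, was at 29.9, 6.26, 23.8 and 2.92 CPM in Tconv and at 140.4, 244 and 341 CPM in Treg (4.16 ± 0.53, adjusted p = 0.000523). Tigit, an inhibitory receptor for nectin family ligands, rose by 3.18 ± 0.41 (adjusted p = 0.000544), again with no overlap.

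Other members of the list were lower in liver Treg than in kidney Treg, a difference that was not tested. Penk, the precursor of enkephalin peptides, was at 17.5 to 34.4 CPM in liver Treg and at 50.04 to 307 CPM in Treg of the other organs, against 21.8, 3.34, 3.16 and 65.5 CPM in Tconv (log2 fold change 2.90 ± 0.41, adjusted p = 0.00116). Areg and Dusp4 were picked out after their values were seen. Areg, the repair factor amphiregulin, was at 1.36 to 8.48 CPM in liver Treg and at 67.8 to 291 CPM in kidney Treg, against 22.9, 0, 1.12 and 9.50 CPM in Tconv (adjusted p = 0.0175). Dusp4, a phosphatase of MAP kinases, was at 12.2 to 31.1 CPM in liver Treg and at 580.0 to 1154 CPM in kidney Treg, against 149.7, 3.42, 4.71 and 84.9 CPM in Tconv (adjusted p = 0.0197). For these 3 genes liver Treg fell within the range of Tconv of other organs, yet within each organ all 3 Treg libraries were above their Tconv library.

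Chemokine and homing receptors split by gene. Of 22 tested on a list of 24, 5 were higher in Treg (Gpr15, Ccr6, Ccr3, Ccr1 and Ccr8) and 2 lower (S1pr5 and Ccr9), with a median of 0.23. Gpr15, a receptor known for guiding T cells to the large intestine, was at 1.47, 5.76, 3.35 and 3.38 CPM in Tconv, at 4.97 to 12.3 CPM in kidney Treg and at 78.0 to 85.5 CPM in liver Treg. Its log2 fold change was 3.15 ± 0.32 (adjusted p = 8.22e-05), and all 3 Treg libraries were above Tconv in each organ. Ccr3, the eotaxin receptor, was at 0.757, 1.78, 0.0486 and 3.06 CPM in Tconv and at 3.87, 22.9 and 43.7 CPM in Treg (adjusted p = 0.0172, but 0.0867 without kidney Tconv and 0.0779 without liver Tconv). Ccr6, the receptor for CCL20, rose by 1.84 ± 0.32 on the log2 scale (adjusted p = 0.00505), with lung Tconv at 36.7 CPM inside the Treg range. Its adjusted p was 0.0587 without the 4 liver libraries, 0.0605 without the 4 pancreas libraries and 0.0687 with the Treg counts summed per organ. S1pr5, a receptor that lets NK cells leave tissues, was at 2.03, 3.20, 11.1 and 0.274 CPM in Tconv and at 0 in the median Treg library (adjusted p = 0.00494), a call lost without lung, liver or kidney Tconv at 0.12, 0.0843 and 0.077. Ccr9 lost its call without any of 12 libraries. Without lung Tconv neither of the 2 lower calls was left. Cxcr6, a receptor of tissue T cells, was at 1499, 1621, 872 and 96.9 CPM in Tconv and at 68.0, 154 and 639.7 CPM in Treg and was not called (adjusted p = 0.0867).

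The TNF receptor superfamily, through which T cells receive costimulation or death signals, was higher in Treg for 7 of 21 tested and lower for 2, with a median log2 fold change of 1.16. Tnfrsf4 (OX40) was at 156, 15.4, 100 and 107 CPM in Tconv and at 177, 561 and 1316 CPM in Treg (log2 fold change 3.08 ± 0.35, adjusted p = 0.000192). Tnfrsf9 (4-1BB) was at 36.4, 22.7, 47.4 and 65.6 CPM in Tconv and at 72.1, 349 and 982 CPM in Treg (2.88 ± 0.37, adjusted p = 0.000561). Tnfrsf18 (GITR) rose by 1.76 ± 0.27 (adjusted p = 0.00206). All 3 had no overlap, and for each the lowest Treg library was 1 of liver. Tnfrsf1a, the ubiquitous TNF receptor with a death domain, went the other way, at 118, 104, 87.6 and 65.6 CPM in Tconv and at 21.4, 42.1 and 78.3 CPM in Treg (-1.14 ± 0.18, adjusted p = 0.00288). Its adjusted p was 0.0594 without the 4 kidney libraries, 0.0711 without the 4 liver libraries and 0.0762 with the Treg counts summed per organ. Relt, the other member called lower (adjusted p = 0.0478), lost its call without any of 11 libraries, and without lung Tconv 4 receptors were higher and 1 lower. Of 14 TNF superfamily ligands tested on a list of 17, 2 were lower, Cd40lg and Tnfsf14 (LIGHT), and none higher, with a median of -0.23. The Tnfsf14 call was lost without liver, kidney or lung Tconv, at an adjusted p of 0.165, 0.151 and 0.0582.

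Checkpoint and CD28 family receptors, which tune the T cell response, were higher in Treg for 6 of 22 and lower for 2, with a median of 0.64. Without lung Tconv 3 were higher and none lower. Besides Tigit and Ctla4, Pdcd1 (PD-1) was at 316, 46.9, 48.6 and 120.2 CPM in Tconv and at 81.7, 388 and 981 CPM in Treg (log2 fold change 1.75 ± 0.34, adjusted p = 0.0105). Kidney Tconv lay inside the Treg range of the other organs, and the adjusted p was 0.0623 without lung Tconv and 0.052 without pancreas Tconv. Cd226, an activating receptor that shares ligands with Tigit, went down, at 329, 595, 159 and 78.2 CPM in Tconv against 42.9, 98.4 and 176 CPM in Treg (-1.26 ± 0.29, adjusted p = 0.0292). In pancreas Cd226 was not lower in Treg, where its log2 difference was 0.27, and its call was lost without liver, kidney or lung Tconv (adjusted p of 0.267, 0.126 and 0.0885) and without any of the 3 liver Treg libraries (0.0635 to 0.0667).

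Genes for activating transforming growth factor beta (TGF-beta) on the cell surface were among the largest differences. Lrrc32 encodes GARP, which holds latent TGF-beta on Treg, and was at 7.14, 3.27, 0.631 and 1.32 CPM in Tconv and at 152, 520.1 and 1958 CPM in Treg. The lowest and the highest of these Treg values were both from lung. Its log2 fold change was 7.80 ± 0.97 (adjusted p = 0.000421). Itgb8, the integrin chain that releases TGF-beta, was at 0.757, 1.35, 0.0971 and 7.08 CPM in Tconv and at 15.7, 44.6 and 121 CPM in Treg (4.79 ± 0.67, adjusted p = 0.00102, but 0.0565 with the Treg counts summed per organ). Neither gene had an overlap between the groups, and they were the only called genes of 20 tested on that list, whose median was 0.11. Itgav, the partner chain of Itgb8, was at 49.3 to 95.3 CPM in Tconv and at 83.1 to 559 CPM in Treg (adjusted p = 0.0605).

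Adenosine and cyclic AMP genes moved in both directions, with 2 of 17 higher, 2 lower and a median of 0.14. Nt5e, the CD73 ectoenzyme that makes adenosine from AMP, was at 95.1, 76.1, 115 and 77.9 CPM in Tconv and at 146, 297 and 474 CPM in Treg (log2 fold change 1.64 ± 0.24, adjusted p = 0.00168). The phosphodiesterases Pde3b and Pde7a, which break down cyclic AMP, were lower. Pde3b, a gene that Foxp3 is known to repress, was at 335, 634, 105 and 196 CPM in Tconv and at 5.64, 24.5 and 65.4 CPM in Treg (-3.36 ± 0.46, adjusted p = 0.00082). Pde7a was at 263, 185, 116 and 105 CPM in Tconv and at 17.5, 42.1 and 72.0 CPM in Treg (-2.17 ± 0.32, adjusted p = 0.00142). All 3 had no overlap between the groups, but with the Treg counts summed per organ Nt5e and Pde7a lost their calls (adjusted p of 0.0562 and 0.119). The call of Adk, adenosine kinase, was the weakest of the 4 (adjusted p = 0.0392) and was lost without any of 7 libraries, at up to 0.197 without liver Tconv.

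Of the helper cytokines, 14 of 20 were tested, and 4 were lower in Treg and 1 higher, with a median of -1.36. Without lung Tconv 2 were lower and none higher. Il2 was at 22.8, 6.404, 5.196 and 21.4 CPM in Tconv and at 0, 0.558 and 2.15 CPM in Treg. The groups did not overlap, and the log2 fold change was -4.22 ± 0.64 (adjusted p = 0.00187). Ifng, interferon gamma, ranged widely in Tconv, at 388, 55.5, 14.2 and 28.6 CPM, against 0.559, 6.05 and 112 CPM in Treg, of which kidney was highest (-3.17 ± 0.62, adjusted p = 0.0105, but 0.0792 without liver Tconv). Il10, a suppressive cytokine, was higher in Treg, at 4.16, 0.213, 0.146 and 3.02 CPM in Tconv and at 0.0929, 13.6 and 101 CPM in Treg (4.15 ± 0.83, adjusted p = 0.0121). The Treg values of Il10 were 14.4 to 101 CPM in kidney and 28.2 to 74.3 CPM in pancreas, but 0.0929 to 2.32 CPM in liver. Its call was lost without kidney, lung or pancreas Tconv (adjusted p of 0.0663, 0.0567 and 0.0518). Il21 and Csf2, also lower, lost their calls without any of 8 and of 10 libraries, at up to 0.24 without kidney Tconv and 0.253 without liver Tconv.

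Transcription factors that direct helper lineages were mostly not called. Of 22 tested, Gata3 and Tox were higher, Zbtb16 was lower, and the median was 0.46. Gata3, the factor of type 2 helper cells and of tissue Treg, was at 388, 184, 164 and 225 CPM in Tconv and at 318, 525 and 1219 CPM in Treg (log2 fold change 1.38 ± 0.24, adjusted p = 0.00517, but 0.0538 without the 4 pancreas libraries). Tox, a factor of T cell development and exhaustion, rose by 1.22 ± 0.15 (adjusted p = 0.000365). In each organ all 3 Treg libraries were above Tconv for both. Zbtb16 encodes PLZF, the factor of innate-like T cells, and was at 63.1, 101, 4.71 and 3.15 CPM in Tconv and at 0, 0.151 and 1.43 CPM in Treg (-6.74 ± 1.37, adjusted p = 0.0138). It was high in kidney and liver Tconv, and its call was lost without liver Tconv (0.188) or kidney Tconv (0.157). Tbx21, which encodes T-bet, the T-box factor of type 1 helper and NK cells, was likewise highest in kidney and liver Tconv, at 771, 428, 129 and 44.3 CPM in Tconv and at 16.8, 42.9 and 304 CPM in Treg, without passing the threshold (-1.97 ± 0.52, adjusted p = 0.0547).

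Genes of cytotoxic granules and of NK receptors were called on the Tconv side alone. Of 17 killer granule and effector genes 6 were lower in Treg and none higher (median -1.82), and of 17 NK type receptors tested on a list of 24, 9 were lower and none higher (median -4.77), against 1.13% of all genes called lower. Where Treg libraries are near 0 counts, the fitted fold depends on the prior count of the fit. A gene could pass the filter on low counts through the 4 Tconv libraries alone. Members near 0 in Treg could then only come out lower, so the filter in part fixed these counts and medians. Beside Nkg7, Ctsw, a cysteine protease of killer cells, was at 612, 349, 160.3 and 131 CPM in Tconv and at 59.6, 112 and 198 CPM in Treg (log2 fold change -1.27 ± 0.22, adjusted p = 0.00453, but 0.053 without kidney Tconv and 0.127 with the Treg counts summed per organ). Prf1, the pore-forming protein perforin, was at 28.3, 65.2, 45.4 and 54.0 CPM in Tconv and at 1.77, 14.7 and 36.6 CPM in Treg (-1.84 ± 0.39, adjusted p = 0.0164), and was lost without pancreas, lung or liver Tconv at 0.123, 0.0521 and 0.0507. For both, all 3 Treg libraries were below Tconv in each of the 4 organs. Ccl5 and Xcl1, chemokines of activated killer cells, were also called lower. Ccl5 had the organ pattern of Nkg7, whereas Xcl1 was high in kidney and liver Tconv alone. Ccl5 was at 335, 514, 299 and 32.9 CPM in Tconv and Xcl1 at 141, 69.0, 4.47 and 5.30 CPM, against Treg medians of 41.7 and 1.24 CPM. Pancreas Tconv was in the Treg range for both, and lung Tconv for Xcl1. Ccl5 (adjusted p = 0.0363) lost its call without any of 8 libraries, and Xcl1 (0.0242) without any of 4, each at most without liver Tconv, at 0.264 and 0.207. Gzmk, a granzyme of memory cells, was at 31.8, 10.7, 33.0 and 7.13 CPM in Tconv and at 0, 0.838 and 11.7 CPM in Treg (adjusted p = 0.0437), and lost its call without any of 12 libraries, at up to 0.186 without liver Tconv. The granzymes Gzma and Gzmb were not called (adjusted p = 0.288 and 0.985), although Gzma reached 132 CPM in lung Tconv and Gzmb 163 CPM in liver Tconv.

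Because Nkg7, Gzmk and Xcl1 share the heptamer GGTGTGA in the 250 bases before their start, a core of the element that T-box factors such as T-bet bind, that stretch is shown with the heptamer in capitals. The sequences are those of RefSeq for GRCm38.p6, 5′ to 3′ on the strand of the gene. Bases inside an annotated exon are left out, and for Nkg7, where the heptamer lies before the RefSeq start but after the start in the annotation of the counted genes, 30 bases around it are given. They span chr7:43437108-43437137 (plus strand), chr13:113180966-113181215 (minus strand) and chr1:164935528-164935772 (minus strand).
Nkg7: agggagggggtagggaaGGTGTGAgaagaa
Gzmk: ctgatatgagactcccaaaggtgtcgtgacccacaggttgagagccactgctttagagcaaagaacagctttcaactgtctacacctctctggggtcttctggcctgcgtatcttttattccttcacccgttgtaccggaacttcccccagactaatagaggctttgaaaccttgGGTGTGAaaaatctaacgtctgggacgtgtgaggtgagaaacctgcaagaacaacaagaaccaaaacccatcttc
Xcl1: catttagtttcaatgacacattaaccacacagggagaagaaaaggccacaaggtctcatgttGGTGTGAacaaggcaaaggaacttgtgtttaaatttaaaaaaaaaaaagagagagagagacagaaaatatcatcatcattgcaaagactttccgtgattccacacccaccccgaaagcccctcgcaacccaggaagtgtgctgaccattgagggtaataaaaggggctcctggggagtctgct
The heptamer begins 13, 75 and 188 bases before the RefSeq start of Nkg7, Gzmk and Xcl1. That start lies 65, 44943 and 5 bases from the start in the annotation of the counted genes, so for Gzmk the window is before a RefSeq start far from the other. On either strand it was found in that window for 5 of the 33 killer and NK receptor genes with an entry (15.2%), the other 2 being Cd160 and Gzmm, and for 3.84% of all 27025 genes of the table. Of the 5, Gzmm was not called lower. A match is a description of the sequence, and binding was not measured here.

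Among the NK type receptors, Klrd1, the CD94 chain that pairs with NKG2 receptors, was at 29.7, 81.9, 24.6 and 9.55 CPM in Tconv and at 0, 0.0723 and 2.07 CPM in Treg. It did not overlap between the groups and kept its call whichever library was left out (log2 fold change -7.09 ± 0.92, adjusted p = 0.000584). Klrc1, the NKG2A chain, was at 98.1, 118, 30.4 and 1.83 CPM in Tconv and at 0, 0.196 and 2.07 CPM in Treg (-6.82 ± 1.19, adjusted p = 0.0051), lost without liver or kidney Tconv at 0.0717 and 0.0676. Klrk1, the activating receptor NKG2D, was at 119, 90.5, 11.5 and 3.52 CPM in Tconv and at 0, 0.954 and 4.32 CPM in Treg (-4.99 ± 1.03, adjusted p = 0.0147), lost without the same libraries at 0.134 and 0.16. Pancreas Tconv was thus the lowest of the 4 for Klrd1, Klrc1 and Klrk1 alike. Slamf7, an activating receptor of NK cells, was at 73.5, 183, 16.5 and 12.6 CPM in Tconv and at 0, 3.995 and 15.2 CPM in Treg (-4.77 ± 0.71, adjusted p = 0.00168). Slamf7 kept its call whichever single library was left out. It lost it without all 4 liver libraries (adjusted p = 0.0975) and with the Treg counts summed per organ (0.154). Klra1, an inhibitory Ly49 receptor, was at 7.95, 21.6, 3.06 and 1.28 CPM in Tconv and at most at 0.718 CPM in Treg, but Ly49 genes are near-copies of each other and reads may be shared among them. Of the same list Klra3 and Klra4 were too low to be tested.

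The lists were then read organ by organ, where each organ gives 1 Tconv library and the organs' list values were not tested against each other. All 3 Treg libraries were below Tconv for 11 of the 17 killer genes in kidney, 14 in liver, 12 in lung and 6 in pancreas, against 26.1%, 26.5%, 22.6% and 30.3% of all genes tested. All 3 were above it for 1, 1, 3 and 6 of the 17, against 22.2%, 34.9%, 22.6% and 25.8% of all genes. The median log2 difference of the killer list was -1.40, -1.54, -2.10 and -0.08. For the NK receptors all 3 Treg libraries were below Tconv for 13, 15, 12 and 12 of 17 and above it for 0, 0, 0 and 1, and the median was -2.29, -5.65, -3.26 and -1.74. For no member of either list was the inequality among organs called, apart from Cd160 (adjusted p = 0.0461), a receptor of killer and intraepithelial T cells. Cd160 was at 34.6, 223, 11.1 and 7.58 CPM in Tconv, below Tconv in all 3 Treg libraries of kidney, liver and lung, and above it in pancreas, where Treg had 8.41 to 20.8 CPM. No gene was called unequal among organs without kidney Treg replicate 3, Cd160 included, and its call over the 4 organs (adjusted p = 0.0249) was lost without any of 6 libraries, at up to 0.159 without liver Tconv. The counts of the lists rested on single organs: without the lung Tconv library 1 killer gene and 5 receptors were lower, without the 4 kidney libraries 1 and 4, without the 4 liver libraries 0 and 2, without the 4 lung libraries 4 and 5, and without the 4 pancreas libraries 5 and 9.

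**Figure D3:**
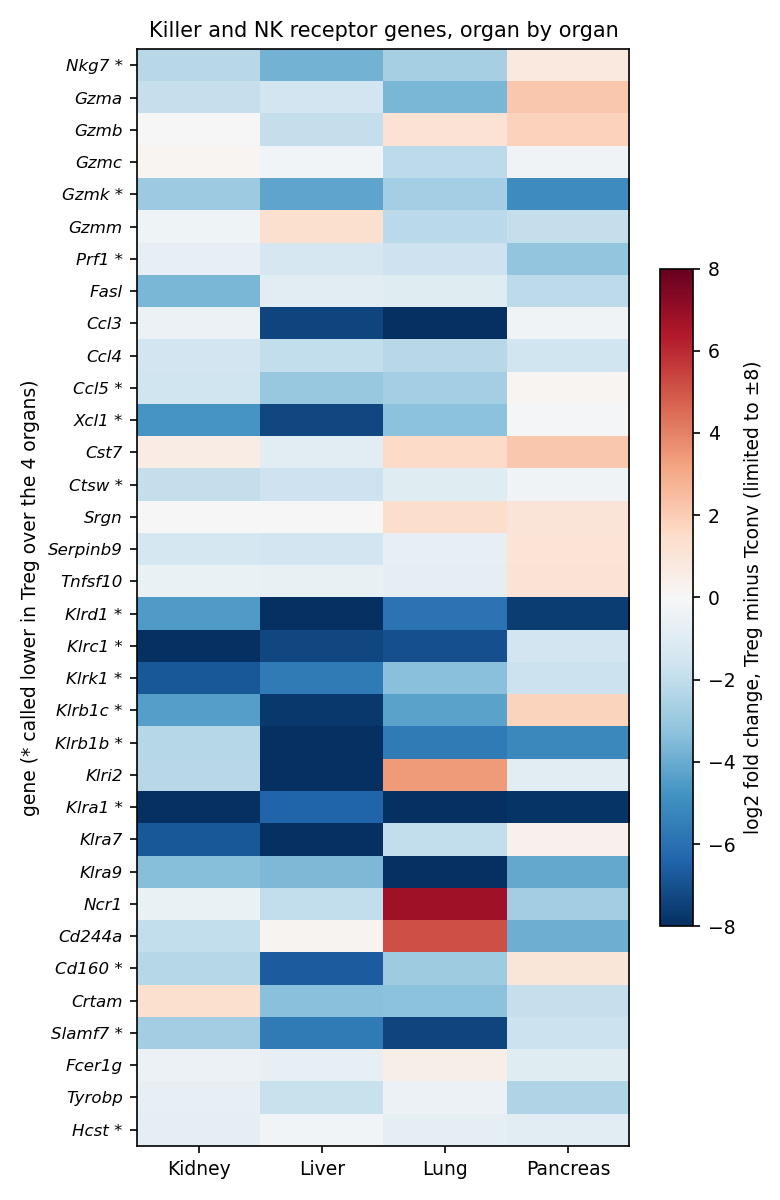
Log2 difference, Treg minus Tconv, of each tested killer and NK receptor gene in each organ, with colours limited to 8 in either direction and an asterisk for genes called lower over the 4 organs. Blue (lower in Treg) prevails in kidney, liver and lung, while Nkg7, Gzma, Gzmb, Cst7, Klrb1c and Cd160, among others, are red (higher in Treg) in pancreas; the dark red tile of Ncr1 in lung rests on a Tconv library at 0 counts.

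Some markers of other cells moved with this group, and some of these are on its lists as well. Of 7 gamma delta T cell markers tested, 3 were lower in Treg, the gamma chain constant genes Tcrg-C1, Tcrg-C2 and Tcrg-C4. Tcrg-C2 was at 65.1, 192, 42.6 and 5.76 CPM in Tconv and at no more than 4.48 CPM in Treg (adjusted p = 0.00168), in the same order of organs as Klrd1 and Nkg7, whereas the delta chain gene Trdc was at 2.65, 0.498, 20.0 and 8.72 CPM in Tconv and was not called (adjusted p = 0.89). The list summed to 28.9 to 418 CPM in Tconv and to 3.92 to 29.5 CPM in Treg. Of 7 NKT and MAIT cell markers 2 were lower, Zbtb16 and Klrb1c (NK1.1), and Klrb1c was at 30.3, 168, 64.8 and 0.914 CPM in Tconv and at 7.91 CPM or less in Treg. That list summed to 281 to 820 CPM in Tconv and 220 to 536 CPM in Treg. Of 11 NK cell and ILC1 markers tested 4 were lower, Klrb1c, Klrk1, S1pr5 and Cd7, with list sums of 121 to 550 CPM in Tconv and 18.5 to 165 CPM in Treg. Klrb1c and Klrk1 are also on the list of NK type receptors, so they are no separate sign of other cells. Ncr1, which defines NK cells, was at 2.70 CPM or less in all 16 libraries. Cd8a was likewise at 2.91 CPM or less throughout, whereas Cd8b1 was at 9.60, 13.8, 19.9 and 55.2 CPM in Tconv and at 18.3 to 39.4 CPM in Treg. The part of these other cells in the killer and NK receptor differences was not tested.

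On the Treg side, 2 of 14 B cell markers were higher. Cd79b, a chain of the B cell receptor, was at 1.70, 4.20, 1.12 and 3.43 CPM in Tconv and at 6.97, 21.1 and 40.8 CPM in Treg (log2 fold change 3.10 ± 0.35, adjusted p = 0.000192), with no overlap. Ighm was the other. The list summed to 403 to 569 CPM in Tconv and 390.0 to 1254 CPM in Treg. The ILC2 markers called higher, 3 of 9 tested, were Il1rl1, Gata3 and Areg, which tissue Treg also express. Of 17 myeloid and 10 endothelial markers 1 each was called, Siglech and Kdr, both lower, and their Treg values were at 0 or near it outside kidney. No call was made among the markers tested of pancreas acini and islets (18), kidney tubule (5), liver cells (9), lung epithelium (6), stroma (6), red cells and platelets (6), plasma cells (5), mast cells and basophils (2) or CD8 T cells (2) by edgeR, and of these 4 liver cell genes and no others had an unadjusted p under 0.05.

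IL-2 signalling genes gave a mixed picture within the organs. Of 21 genes of the IL-2 receptor and its STAT5 targets, 4 were higher in Treg (Il2ra, Jak3, Pim1 and Myc) and 2 lower (Pim2 and Ccnd2), with a median of 0.49. Ccnd2, cyclin D2, was at 1040.0, 1107, 1040.0 and 854 CPM in Tconv and at 414, 572 and 698 CPM in Treg (log2 fold change -0.81 ± 0.13, adjusted p = 0.00202). Pim2, a survival kinase, was at 85.3, 92.5, 138 and 79.9 CPM in Tconv and at 44.2, 51.4 and 65.5 CPM in Treg (-0.88 ± 0.14, adjusted p = 0.00225). Neither overlapped. The call of Jak3, the kinase of the common gamma chain (0.65 ± 0.13, adjusted p = 0.0147), was lost without kidney, liver or pancreas Tconv, at 0.0902, 0.0819 and 0.0757. That of Pim1 (1.20 ± 0.25, adjusted p = 0.0163) was lost without lung or pancreas Tconv, at 0.0611 and 0.0549.

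Some genes of IL-2 signalling and of Treg identity also differed between the solid organs and blood, spleen and lymph node. In a fit of all 40 libraries the Treg minus Tconv difference of solid organs was set against that of these lymphoid sources, which hold 9 Treg and 3 Tconv libraries. Of 22976 genes tested, 34 were called (0.148%), 32 below 0 (0.139%), that is with a smaller or more negative difference in solid organs, and 2 above 0 (0.0087%). Of the 21 IL-2 and STAT5 genes 6 were called below 0, Il2ra, Il2rb, Cish, Socs1, Socs2 and Ccnd2, with a list median of -0.16 against 0.01 over all genes. Of the 24 Treg identity genes 6 were called below 0 as well, 3 of them the same genes (Il2ra, Il2rb and Socs2) and the others Ikzf2, Entpd1 and Rgs1.

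Il2ra is the clearest of these. With the libraries scaled over all 40, its Treg mean was 407 ± 98.95 CPM (SD, n = 12) in solid organs and 558 ± 108 CPM (SD, n = 9) in lymphoid sources, while its Tconv mean was 49.6 ± 26.4 CPM (SD, n = 4) and 4.72 ± 2.62 CPM (SD, n = 3). Every solid organ Tconv library, at 34.9 to 89.2 CPM, was above every lymphoid Tconv library, at 1.71 to 6.465 CPM. Tconv of the gut wall (intraepithelial and lamina propria lymphocytes) had a mean of 54.2 ± 45.6 CPM (SD, n = 2), so this level was not seen in solid organs alone. The log2 difference was 3.11 in solid organs and 6.89 in lymphoid sources, and the gap between them was -3.78 ± 0.40 (adjusted p = 1.28e-06).

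Il2rb followed the same course. Tconv had 2026, 2977, 1092 and 417 CPM in the 4 organs but 129, 229 and 158 CPM in blood, spleen and lymph node, while Treg had 1990.0 ± 415 CPM (SD, n = 12) and 1797 ± 389 CPM (SD, n = 9). The gap was -2.95 ± 0.39 (adjusted p = 5.81e-05). Among the feedback inhibitors that STAT5 induces, Socs2 was at 89.1, 56.7, 54.4 and 6.28 CPM in solid organ Tconv and at 0.942, 1.69 and 0.481 CPM in Tconv of blood, spleen and lymph node (-5.22 ± 0.59, adjusted p = 4.72e-06), and Cish at 197, 112, 245 and 53.3 CPM against 7.93, 23.8 and 15.5 CPM (-2.78 ± 0.39, adjusted p = 0.000123). For Il2rb, Socs2 and Cish alike pancreas Tconv was the lowest of the solid organs and still above each lymphoid Tconv library. Mdfic, which encodes a protein with a MyoD family inhibitor domain, had Tconv means of 59.8 ± 25.1 CPM (SD, n = 4) and 6.82 ± 4.89 CPM (SD, n = 3) and Treg means of 62.7 and 68.7 CPM (-3.37 ± 0.42, adjusted p = 2.49e-05). The calls of these 5 genes held whichever of the 40 libraries was left out. Gut wall Tconv had means of 934 CPM of Il2rb, 29.7 of Socs2, 173.5 of Cish and 55.3 of Mdfic. For none of the 5 genes was the gap between solid organs and gut wall called.

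Because Mdfic is a member of this group whose promoter holds the palindrome TTCNNNGAA, the element bound by STAT5 dimers, the stretch before its exons is shown with the element in capitals, from RefSeq (GRCm38.p6, chr6:15720411-15720565, plus strand).
Mdfic: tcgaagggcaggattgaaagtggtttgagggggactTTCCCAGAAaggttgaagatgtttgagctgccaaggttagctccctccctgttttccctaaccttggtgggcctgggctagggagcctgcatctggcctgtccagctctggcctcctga
The element begins 214 bases before the RefSeq start. Of the 32 genes called below 0, 21 had an entry. In the 250 bases before the start the element was found for 4 of these 21 (Mdfic, Cd160, Fgl2 and Serpina3g, 19.0%) and for 8.13% of all 27025 genes of the table. Il2ra, Il2rb, Cish, Socs1, Socs2 and Ccnd2 were not among the genes with a match. The element is the same on both strands. A match is a description of the sequence, and binding was not measured here.

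**Figure D4:**
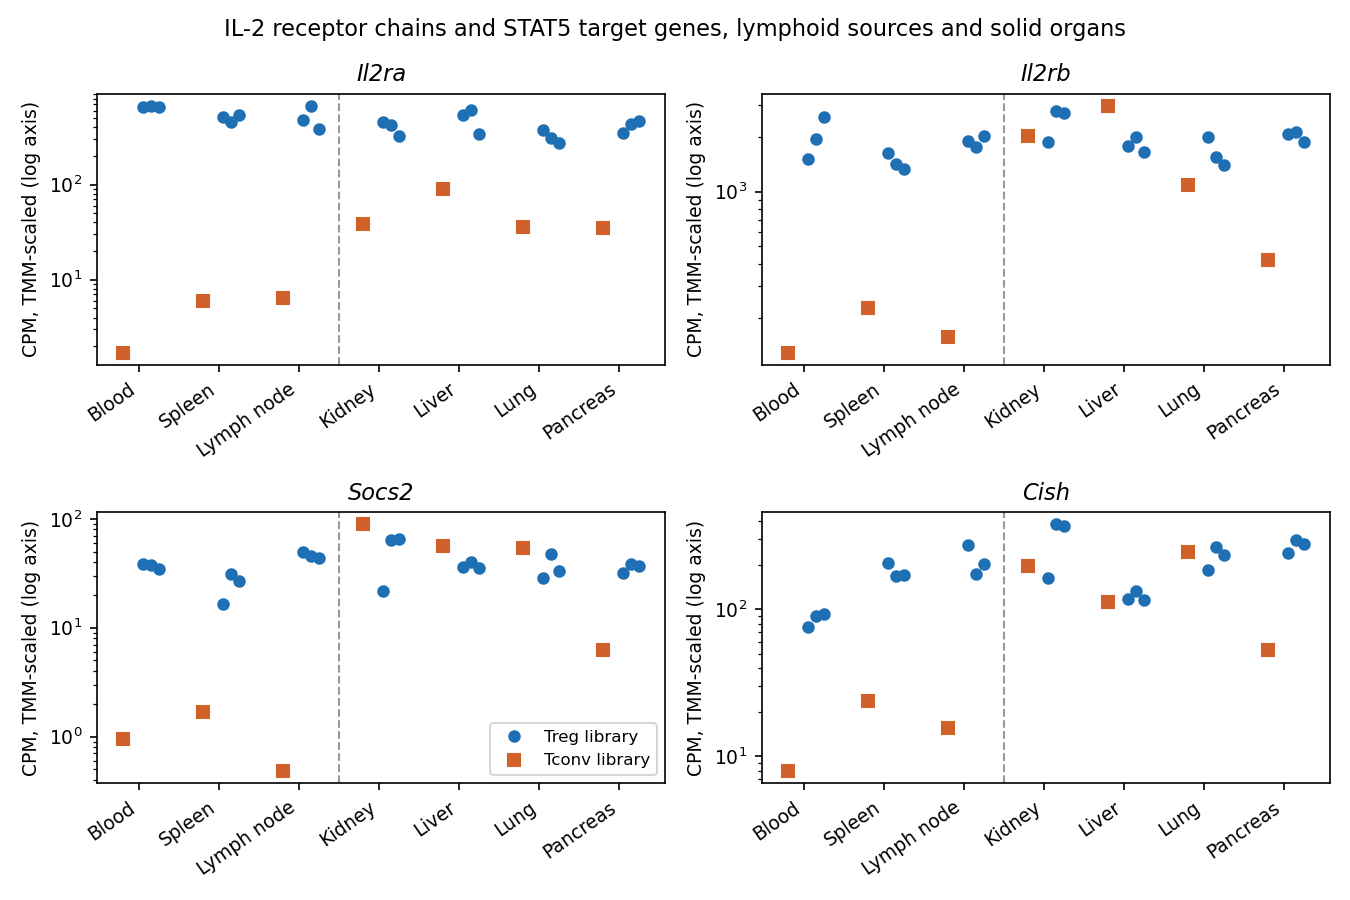
CPM of Il2ra, Il2rb, Socs2 and Cish in each Treg (circles) and Tconv (squares) library of blood, spleen and lymph node, left of the dashed line, and of the 4 solid organs, on log axes. Treg values are of the same order on both sides, while Tconv values are higher in solid organs (Il2ra 34.9 to 89.2 CPM) than in lymphoid sources (1.71 to 6.465 CPM). Gut wall Tconv, not drawn, had a mean of 54.2 CPM of Il2ra.

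The other genes called below 0 include Slamf7, Cd160, Tcrg-C2 and Tcrg-C4 from the NK receptor and gamma delta lists, Fgl2, Rgs1, Entpd1, Socs1, Ikzf2, Ccnd2, Cd226 and Tnfsf11. These were picked out after their values were seen. Entpd1, the CD39 ectoenzyme, had Tconv values of 97.0, 93.7, 11.6 and 10.1 CPM in solid organs and 2.01, 5.03 and 2.51 CPM in blood, spleen and lymph node (-3.19 ± 0.44, adjusted p = 0.000123). Fgl2, a secreted fibrinogen-like suppressor protein, had means of 444 CPM in Treg and 484 CPM in Tconv of solid organs and of 63.0 and 2.54 CPM in lymphoid sources (-4.84 ± 0.91, adjusted p = 0.0167). Sgms1, a sphingomyelin synthase, and Sgk1, a salt- and hormone-induced kinase, were the 2 above 0, at 1.24 ± 0.25 (adjusted p = 0.0236) and 1.61 ± 0.35 (adjusted p = 0.0395). In both, Treg of lymphoid sources were the low group, with 65.3 ± 19.1 CPM of Sgms1 and 32.4 ± 8.65 CPM of Sgk1 (SD, n = 9), against 137 and 99.3 CPM in solid organ Treg. Leaving out 1 library ended the call of Sgms1 in 5 cases and of Sgk1 in 18 of 40, at up to 0.217 without spleen Tconv and 0.334 without lymph node Tconv. The count of 34 fell to 12 without lymph node Tconv, to 18 without blood, kidney or liver Tconv, and rose to 111 without pancreas Tconv.

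Against the gut wall, with 6 Treg and 2 Tconv libraries of intraepithelial and lamina propria lymphocytes, 1 gene of 22976 was called (0.00435%), and 1322 had an unadjusted p under 0.05. It was Cd8b1, a chain of the CD8 coreceptor, named here after its value was seen. Its log2 gap was 3.51 (adjusted p = 0.00617), with means of 28.6 CPM in Treg and 26.0 CPM in Tconv of solid organs and of 12.2 CPM in Treg and 105 CPM in Tconv of the gut wall, where Tconv were the high group. DESeq2 and limma-voom each called 216 genes in this comparison.

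Among the 4 organs, the size of the Treg minus Tconv difference was unequal for 8 of 15015 genes (0.0533%), and 970 had an unadjusted p under 0.05. Hdac6, a cytoplasmic deacetylase, was at 16.1, 12.03, 0.0486 and 15.7 CPM in Tconv and at 11.0, 19.7 and 29.2 CPM in Treg (adjusted p = 0.0313). Wdr90, a ciliary protein gene, Rrp12, a factor of ribosome assembly, and Nek2, a mitotic kinase, showed the same pattern of lung Tconv at 0, 0.243 and 0.0486 CPM. Each organ's difference rests on 1 Tconv library, so an inequality among organs cannot be told apart from a deviation of that library. Lung Tconv is 1 of the 2 libraries that stood apart, and without it the adjusted p of each of these 4 genes was 1.0. Each also lost its call without several Treg libraries, at up to 0.13 for Nek2. Ikzf4 differed otherwise: its log2 difference was 6.72 in kidney and 5.01 in liver but 3.59 in pancreas and 2.17 in lung (adjusted p = 0.0332, but 0.465 without lung Tconv and 0.116 without kidney Tconv). Its Treg levels were alike in the 4 organs, and its Tconv levels were 1.89 and 6.12 CPM in kidney and liver and 38.95 and 19.0 CPM in lung and pancreas.

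Each organ alone set 3 Treg libraries against 1 Tconv library, which is assumed to vary like Treg. In kidney 14 genes were called (0.0932%), 9 higher (0.0599%) and 5 lower (0.0333%). In liver 57 were called (0.38%), 29 higher (0.193%) and 28 lower (0.186%). In lung there were 175 (1.17%), 152 higher (1.01%) and 23 lower (0.153%), and in pancreas 12 (0.0799%), 10 higher (0.0666%) and 2 lower (0.0133%). These counts moved with single libraries, to 6 in kidney and 7 in pancreas without kidney Treg replicate 3, 10 in liver without liver Treg replicate 3, 335 in lung without lung Treg replicate 6 and 112 without pancreas Treg replicate 1, 48 in pancreas without kidney Treg replicate 1, and 38 in kidney and 154 in liver without lung Treg replicate 1. The lung count rests on lung Tconv, a library that stood apart, and limma-voom with quality weights gave 8 there. Foxp3 was called in all 4, with log2 differences of 8.96, 9.35, 4.81 and 6.84. Ikzf2, Ikzf4 and Itgae were called in each organ as well, Itgae at 3.20, 5.56, 3.03 and 6.45. In liver, Cd160 (-6.66), Atp8a2 (-5.94), Ckb (-3.79), Dusp6 (-3.59) and Pde7a (-3.26) led the lower genes, and Pde7a lost its call without liver Treg replicate 3 (adjusted p = 0.0564). Ckb, the creatine kinase of brain and other tissues, was at 271 CPM in liver Tconv and at 14.3 to 23.0 CPM in liver Treg. Dusp6, a phosphatase of the kinase ERK, was at 331 CPM in liver Tconv and at 18.0 to 37.7 CPM in liver Treg, a call lost without liver Treg replicate 3 (adjusted p = 0.052). In pancreas the 2 lower genes were Sema4a (-2.80) and Rgmb (-2.98), a ligand of PD-L2 and co-receptor for bone morphogenetic proteins, which was at 47.1 CPM in Tconv and at 5.11 to 7.45 CPM in Treg. Rgmb was also lower in lung (-2.30) but not in liver, where Tconv had 17.9 CPM and Treg 18.6 to 21.2 CPM.

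The share of called members was near the 2.98% called over all genes for T cell receptor signalling and interferon-stimulated genes, and 0 for cell cycle genes. It was higher for early response genes and for integrins and adhesion genes. T cell receptor signalling had 1 of 28 genes called, Themis, and a median of -0.09. Early response genes had Nfkbia higher and Dusp2 lower of 24, with a median of 0.52, and both lost their calls without several libraries, at up to 0.184 without kidney Tconv and 0.32 without liver Tconv. The summed level of the early response list was 32500, 3968, 3657 and 16140 CPM in Tconv and 3477 to 34050 CPM in Treg. In lung its median was 2.39 and all 3 Treg libraries were above Tconv for 18 of the 24, against 22.6% of all genes tested. Of 24 interferon-stimulated genes 1 was called, Ifi27l2a, at 124 to 289 CPM in Tconv and 199.5 to 485 CPM in Treg (adjusted p = 0.0421, lost without any of 10 libraries, at up to 0.216 without liver Tconv). None of 24 cell cycle genes was called by edgeR or DESeq2, 0 had an unadjusted p under 0.05 in edgeR, and their median was 0.10. Their signs differed by organ: 22 of the 24 were below 0 in kidney and 17 in liver, but 6 in lung and none in pancreas, where all 3 Treg libraries were above Tconv for 20 of the 24, against 25.8% of all genes tested. Among integrins and adhesion genes, Itgae, Itgb8 and Nrp1 were higher and Ly6c2 lower of 24, with a median of 0.31.

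**Figure D5:**
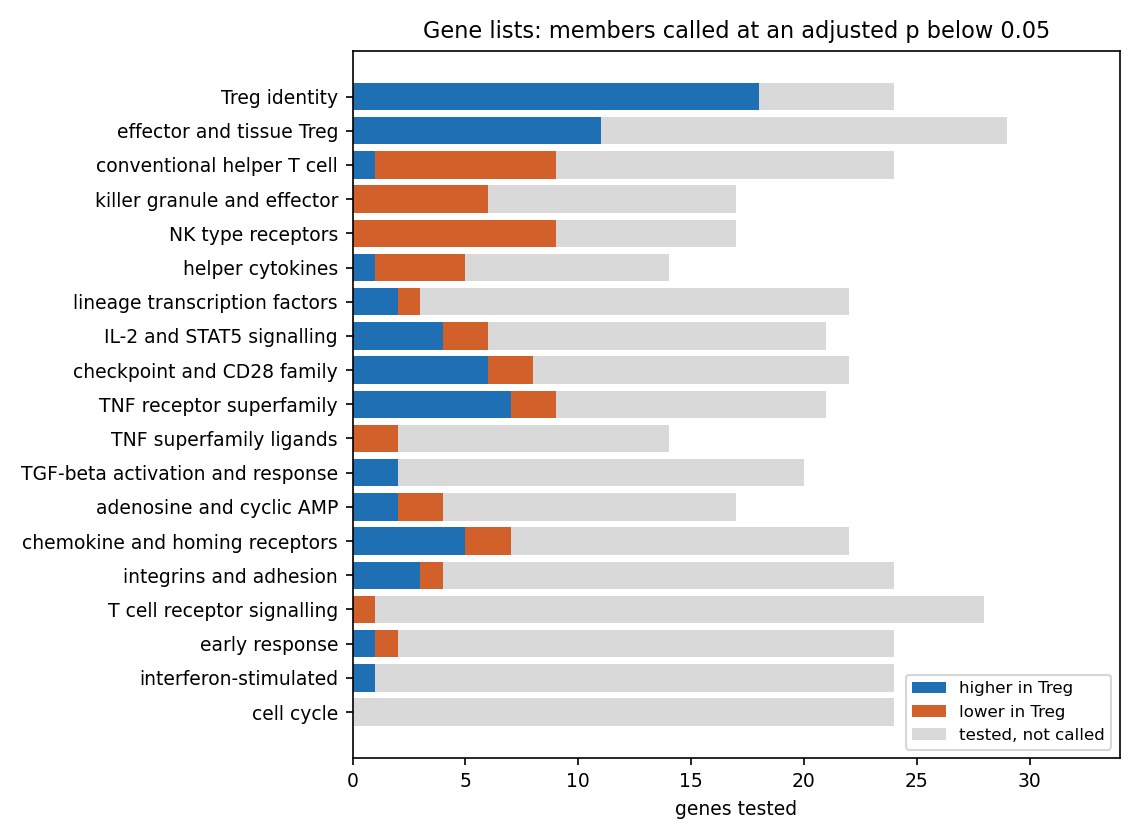
Number of genes tested on each of 19 gene lists, split into those called higher in Treg, called lower in Treg and not called. Treg identity (18 of 24 higher) and NK type receptors (9 of 17 lower) stand at the 2 ends, and cell cycle has no call.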

How the data were processed

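RNA of 2000 sorted cells per library was sequenced as 3′ tags with QuantSeq. The deposited table gives raw counts per gene as the authors made them, for 55421 genes in 40 libraries, of which 54587 identifiers matched GENCODE M21 with the same mm10 coordinates. The submitters' processing notes name Trim Galore, STAR and featureCounts, and versions are not given in the sources used here. Whether counting used strand is not stated there.

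Counts were tested with edgeR 4.0.16 in R 4.3.3 (quasi-likelihood F test, robust, TMM scaling, genes kept by filterByExpr), with organ and cell type as additive factors over the 16 solid organ libraries. Inequality among organs was tested in an interaction model of the same libraries, and the gaps to lymphoid sources and gut wall in a model of all 40, so these comparisons share libraries. The threshold was a Benjamini-Hochberg adjusted p of 0.05, and the standard error is the log2 fold change divided by the square root of F. CPM is the count relative to the scaled library total. DESeq2 1.42.0 and limma 3.58.1 were alternatives, and the fits were tested on simulated data.

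Named genes had to be called and to differ by a log2 of 1 or more in either direction, and were taken in order of p, leaving out predicted genes, receptor segments and markers of other cells: the first 12 in each direction for the main comparison, and up to 5 in each direction within organs, among organs and for the gaps. From each list up to 5 members were named by p, with those that went against most, and up to 4 of the highest from lists of other cells. Foxp3, Ccr8 and Nkg7 were given throughout. Areg, Dusp4, Dapl1, Tcf7, Ccr7, Ccr1, Cxcr6, Cst7, Gzma, Gzmb, Gzmk, Gzmm, Myc, Cd8b1, the uncalled identity genes and other genes outside this rule were chosen after their values were seen. The comparison, the 19 immune lists and the 16 lists of other cells were chosen with earlier results of these data known. Promoters are those of RefSeq (GRCm38.p6).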

Additional observations from a re-analysis of the deposited data

Results flagged for a closer look

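In 26 groups of 4 Tconv libraries, 1 for each gene looked at, the library farthest from the other 3 was tested for its gap, and 4 groups had such a library, where chance gives about 1 in 20. Il2ra was at 85.0 CPM in liver Tconv, above the other 3. Foxp3 was at 6.22 CPM and Smoc2 at 8.21 CPM in lung Tconv, each above the others. Zadh2 was at 43.0 CPM in pancreas Tconv, below the others.

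The difference between Treg and Tconv was unequal among the 4 organs for 5 named genes by the interaction term of edgeR, with an adjusted p of 0.0313 for Hdac6, 0.0314 for Wdr90, 0.0314 for Rrp12, 0.0332 for Ikzf4 and 0.0332 for Nek2. Lung Tconv was at 0.243 CPM or less for Hdac6, Wdr90, Rrp12 and Nek2, and none of the 5 was called without it.

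The difference was also unequal between solid organs and blood, spleen and lymph node for 7 named genes, by a contrast of the 2 differences. The log2 gap was -3.78 for Il2ra, -5.22 for Socs2, -3.37 for Mdfic, -2.95 for Il2rb and -2.78 for Cish. It was 1.24 for Sgms1 and 1.61 for Sgk1, in which single libraries decided the call.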

How the results depend on the processing

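None of the 76 named genes called in solid organs changed direction in an alternative run. DESeq2 covered 73 of them and the fit without the 4 lung libraries 75. The number of calls varied, and the cause was not tested. Of the 447 genes called in solid organs (277 higher, 170 lower), another scaling (444) and no filter on low counts (378) kept the number within 1.5 times. A fit of all 40 libraries gave 869 (535 and 334), DESeq2 1103 (728 and 375) and limma-voom 1145 (591 and 554). Without the kidney libraries there were 174 (120 and 54), without the liver libraries 123 (82 and 41), without the pancreas libraries 238 (124 and 114) and with Treg counts summed per organ 153 (108 and 45). Of 76 named genes called in solid organs, 35 lost their call with the Treg counts summed per organ. Leaving out 1 library gave 203 to 651 (higher 140 to 388, lower 63 to 263), the highest without lung Treg replicate 1.

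For the gap to lymphoid sources (34), DESeq2 gave 400 (146 above 0 and 254 below), limma-voom 73 (27 above 0) and the fit without blood 13 (0 above, 13 below). A filter by cell type only, chosen after seeing the data, gave 4 above 0. Leaving out 1 library gave 12 to 111 (0 to 21 above, 12 to 90 below). For the gap to the gut wall (1), DESeq2 and limma-voom each gave 216, the fit without the marker genes 0, and leaving out 1 library 1 to 5.

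Within kidney, liver and pancreas no filter gave 28, 91 and 34 calls. DESeq2 gave 229, 516, 1074 and 274 within kidney, liver, lung and pancreas, and limma-voom 109, 181, 8 and 124. Among organs no filter gave 53, DESeq2 308 and limma-voom 2. Leaving out 1 library gave 6 to 38 in kidney, 10 to 154 in liver, 112 to 335 in lung, 7 to 48 in pancreas and 0 to 25 among organs.

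With the replicate number as a block, 55 genes were called in solid organs (37 higher, 18 lower), 3 against lymphoid sources (0 above, 3 below) and 3 against the gut wall. In that fit 47 of 76 named genes called in solid organs lost their call, among them Il2, Ctla4, Itgae, Tigit, Il1rl1 and Nkg7. Treg identity kept 11 genes higher, while 0 killer genes and 1 NK receptor were lower and 0 checkpoint genes were called. Over 11 pairs of libraries with the same number the correlation of deviations was -0.144 to 0.204, and over 43 pairs with other numbers -0.231 to 0.270. Of 12 libraries 4 correlated best with their own number. The labels do not say that a number marks an animal, and these correlations cannot decide it.

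The design holds 1 Tconv library for each organ. In simulated data of this design 18% of genes changed by a log2 of 1 and 47% of those changed by a log2 of 2 were recovered among 15015 genes. The shares were 0% and 4% within liver among 15015 genes, and 4% and 29% for the gap to lymphoid sources among 22976.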
